A study of Arabidopsis thaliana with 20 samples.

Results

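This account follows 10 genes of DNA replication in whole roots of grafted Arabidopsis thaliana plants, out of 32833 gene codes counted, of which 20862 passed a filter on low counts and were tested. They were taken by name: MCM2 (AT1G44900), MCM3 (AT5G46280), MCM4 (AT2G16440), MCM5 (AT2G07690), MCM6 (AT5G44635), MCM7 (AT4G02060), PCNA1 (AT1G07370), PCNA2 (AT2G29570), CDC6 (AT2G29680) and TSO2 (AT3G27060). All 10 passed the filter in the same table as every other gene. Each plant joined a shoot and a root of Col-0 wild type (WT) or of cpd, a mutant of CPD, the gene of a cytochrome P450 needed to make brassinosteroid hormones. Groups are named shoot first. In WT/cpd a WT shoot was on a cpd root, in cpd/WT a cpd shoot was on a WT root, in cpd/cpd both parts were cpd, and in WT/WT both were WT. Each group had 5 RNA sequencing libraries, each from a pool of 3 roots. The titles of the cpd/cpd libraries lack the word for grafting that the other titles carry, although the design text counts them among the grafts, so a difference in grafting cannot be told apart from genotype where cpd/cpd is compared. The labels do not give the plants' age or say whether pools came from separate sowings, so a p-value reflects the spread among these pools only. The cpd allele is not named in the labels.

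The MCM2 to MCM7 proteins form a ring, the core of the helicase that unwinds DNA at replication forks. CDC6 helps to load this ring onto origins before S phase, PCNA is the sliding clamp that holds polymerases on DNA, and TSO2 is a small subunit of ribonucleotide reductase, the enzyme that makes deoxynucleotides. In roots these genes are used chiefly by dividing cells of the meristem and of young lateral roots, and by cells that copy their DNA without dividing, and many of them are known targets of E2F transcription factors.

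E2F factors bind sites whose core reads TTCCCGC in one form, TTGGCGC in another form, and TTCGCGC or sometimes TTGCCGC in others. These 7 letters were searched on both strands of a window from 250 bases before to 50 bases after the RefSeq gene start (TAIR10.1 assembly). The windows of 7 of the 10 genes held a match, against 997 of 27443 protein-coding genes (3.63%). With another T required in front of the core, 5 of the 10 held one (MCM2 to MCM6), against 483 windows (1.76%). In 6 of the 10 a match lay wholly upstream of the start, and those stretches are shown. They read 5′ to 3′ on the gene's strand, with matches in capitals, and a match may read along either strand.
MCM2, chr1:16970168-16970213, plus strand: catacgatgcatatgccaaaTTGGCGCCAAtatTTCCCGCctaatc
MCM3, distal match, chr5:18773850-18773896, minus strand: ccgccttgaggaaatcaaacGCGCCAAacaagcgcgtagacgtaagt
MCM3, proximal match, chr5:18773742-18773788, minus strand: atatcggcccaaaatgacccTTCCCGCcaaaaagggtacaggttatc
MCM4, chr2:7130738-7130784, minus strand: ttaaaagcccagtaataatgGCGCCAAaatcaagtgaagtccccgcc
MCM5, chr2:3527501-3527538, minus strand: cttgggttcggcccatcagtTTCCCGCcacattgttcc
MCM6, chr5:18010687-18010733, minus strand: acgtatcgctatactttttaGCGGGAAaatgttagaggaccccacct
PCNA2, chr2:12651754-12651781, minus strand: taattcatcgtcacacacagGCGGGAAc
In MCM2 a match on each strand overlapped in one palindromic run, ahead of another match. MCM5 had a further match across its start, and the match of PCNA1 lay 18 bases inside the gene. MCM7, CDC6 and TSO2 had no match in this window. A match is a description of letters and not evidence of binding.

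**Figure D1:**
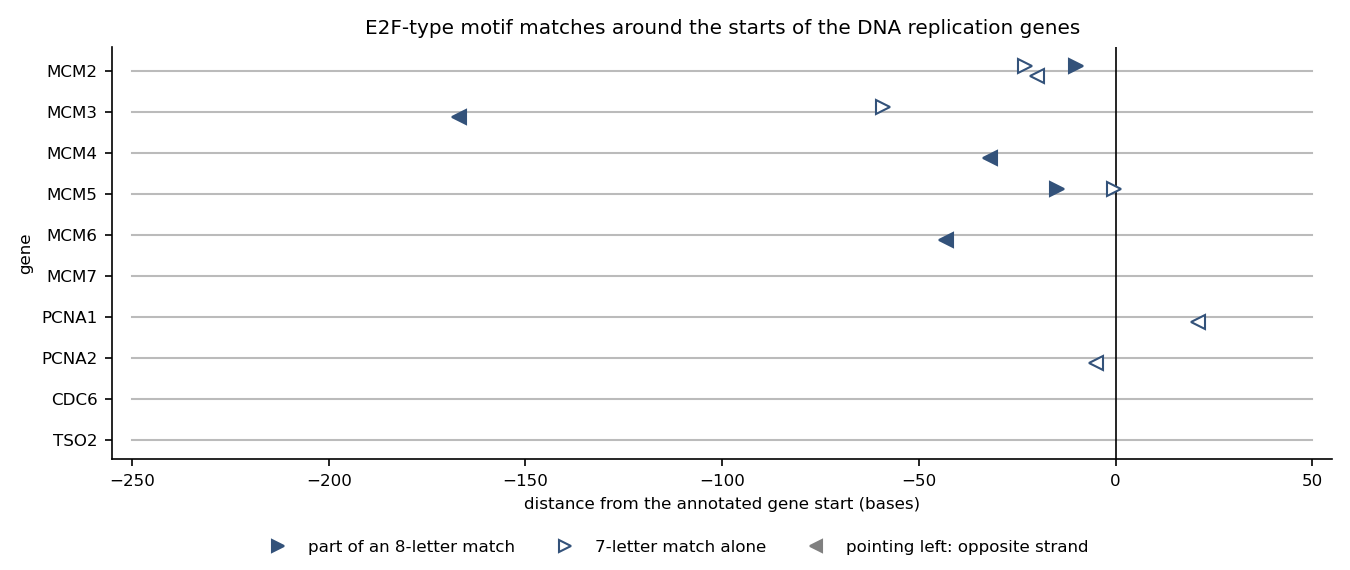
Position of each E2F-type match (arrowheads) relative to the annotated gene start, in bases, for the 10 genes from top to bottom, with the searched window as a grey line. Filled arrowheads belong to 8-letter matches, open ones to 7-letter matches alone, and those pointing left lie on the opposite strand; 7 genes have at least 1 match and MCM7, CDC6 and TSO2 have 0.

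Library totals ran from 13417029 to 32337043 counts. CPD checked the root labels: it averaged 3.996 ± 0.751 CPM in WT/cpd, 40.9 ± 4.54 CPM in cpd/WT, then 2.84 ± 0.630 CPM in cpd/cpd, against 45.5 ± 4.93 CPM in WT/WT (SD, n = 5 each; CPM stands for counts per 1 M after scaling), so cpd roots were low and WT roots high in all 20 libraries. In each group 1 library had the lowest mean correlation of log2 CPM with the rest of its group: WT/cpd replicate 2 (0.965), cpd/WT replicate 2 (0.979), cpd/cpd replicate 4 (0.974) and WT/WT replicate 4 (0.974). Results are given with all 20 libraries and without these 4. The material was whole roots, and fewer cells of a type and less RNA per cell cannot be told apart. Of the markers checked, none was at 0 in a whole group, and the list of 10 photosynthesis genes of the shoot summed to 887 to 1832 CPM in WT/cpd, 1237 to 2019.7 CPM in cpd/WT, then 1066 to 2254 CPM in cpd/cpd, against 572 to 1158 CPM in WT/WT.

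No member was called by edgeR in any of the 5 pairwise comparisons of groups, which called 1.86% to 9.45% of all genes. The 4 groups overlapped for every member, but the share of all genes whose groups overlapped is not given here. The mean of each of the 10 genes was highest in cpd/cpd, by a factor of 1.11 (MCM4) to 1.34 (PCNA1) over the group with the lowest mean, which was WT/cpd for 8 genes and cpd/WT for MCM2 and MCM5. Per kilobase of coding sequence, TSO2 had the highest level over all libraries (55.7 CPM), followed by PCNA2 (36.5) and PCNA1 (29.2). The helicase genes lay lower, from 6.43 CPM per kilobase for MCM6 to 14.95 for MCM7, and CDC6 was lowest (3.37).

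**Figure D2:**
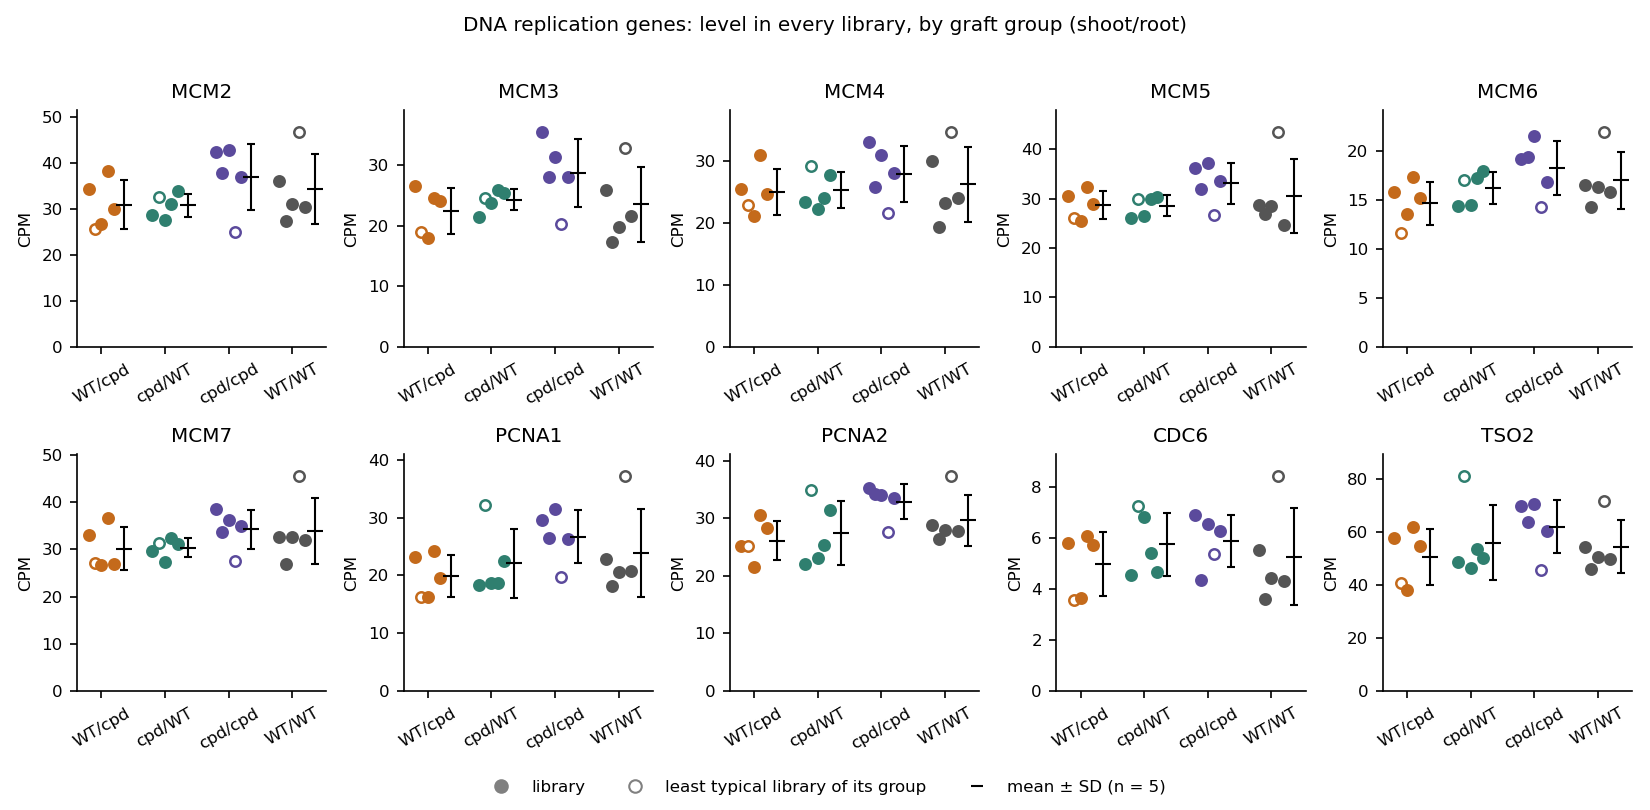
CPM of each of the 10 genes (panels) in every library, by graft group named shoot/root on the horizontal axis. Points are libraries, open points the least typical library of each group, and black bars the mean ± SD of 5 libraries; cpd/cpd has the highest mean in all 10 panels, and its points overlap with those of each other group.

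Among the helicase genes, MCM2 had 34.2, 25.6, 26.7, 38.1 and 29.98 CPM in WT/cpd roots and 28.7, 32.5, 27.6, 31.02 and 33.8 CPM in cpd/WT roots. It had 42.2, 37.8, 42.7, 24.9 and 36.97 CPM in cpd/cpd roots, against 36.02, 27.3, 31.1, 46.7 and 30.3 CPM in WT/WT roots. The highest MCM2 value was in WT/WT replicate 4 and the lowest in cpd/cpd replicate 4, so the extremes lay outside the order of the group means. Group means of MCM2 were 30.9 ± 5.24 in WT/cpd, 30.7 ± 2.58 in cpd/WT, then 36.9 ± 7.19 in cpd/cpd, against 34.3 ± 7.63 CPM in WT/WT. MCM3 had 26.5, 18.98, 17.9, 24.6 and 23.98 CPM in WT/cpd roots and 21.5, 24.6, 23.8, 25.9 and 25.4 CPM in cpd/WT roots. It had 35.5, 28.03, 31.4, 20.198 and 27.98 CPM in cpd/cpd roots, against 25.9, 17.3, 19.7, 32.9 and 21.6 CPM in WT/WT roots. In cpd/cpd, 4 of 5 MCM3 values were above every WT/cpd and cpd/WT value, and replicate 4 was below most of them. MCM6 had 15.8, 11.6, 13.5, 17.4 and 15.2 CPM in WT/cpd roots and 14.4, 17.02, 14.5, 17.3 and 17.96 CPM in cpd/WT roots. It had 19.3, 19.4, 21.5, 14.3 and 16.9 CPM in cpd/cpd roots, against 16.5, 14.3, 16.4, 21.99 and 15.9 CPM in WT/WT roots. The same pools were high and low for MCM6, with WT/cpd replicate 2 the lowest of all 20.

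MCM4 ranged over 21.2 to 30.95 CPM in WT/cpd, 22.3 to 29.2 CPM in cpd/WT, then 21.6 to 33.04 CPM in cpd/cpd, against 19.3 to 34.7 CPM in WT/WT. MCM5 ranged over 25.6 to 32.3 CPM in WT/cpd, 26.1 to 30.4 CPM in cpd/WT, then 26.7 to 37.3 CPM in cpd/cpd, against 24.7 to 43.5 CPM in WT/WT. MCM7 ranged over 26.8 to 36.7 CPM in WT/cpd, 27.4 to 32.4 CPM in cpd/WT, then 27.6 to 38.5 CPM in cpd/cpd, against 26.8 to 45.6 CPM in WT/WT. For MCM4, MCM5 and MCM7 the WT/WT group had the widest range, set at the top by replicate 4. MCM7 overlaps STP7 on the opposite strand and a transfer RNA gene on its own strand, and the strand setting of the counting is not given, so its counts may include other transcripts.

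CDC6, the loader of the helicase, had the lowest counts of the members, 69 to 219 a library. CDC6 had 5.81, 3.56, 3.66, 6.06 and 5.73 CPM in WT/cpd roots and 4.55, 7.24, 6.82, 5.41 and 4.68 CPM in cpd/WT roots. It had 6.88, 4.34, 6.54, 5.37 and 6.27 CPM in cpd/cpd roots, against 5.54, 3.62, 4.43, 8.42 and 4.32 CPM in WT/WT roots. The highest CDC6 value was in WT/WT replicate 4 and the lowest in WT/cpd replicate 2, and all groups overlapped. The spread of CDC6 within groups was the widest of the 10, with a pooled SD of 0.36 on the log2 scale, against 0.20 for MCM7, the narrowest. CDC6 overlaps another gene, AT2G29679, on the opposite strand.

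The clamp genes PCNA1 and PCNA2 encode near-identical proteins and share 85.3% of aligned coding positions, with a longest identical run of 41 bases, so how their reads were shared out depends on the counting. PCNA1 had 23.2, 16.3, 16.3, 24.1 and 19.6 CPM in WT/cpd roots and 18.3, 32.2, 18.6, 18.7 and 22.5 CPM in cpd/WT roots. It had 29.6, 26.5, 31.6, 19.7 and 26.3 CPM in cpd/cpd roots, against 22.7, 18.1, 20.6, 37.2 and 20.8 CPM in WT/WT roots. Here WT/WT replicate 4 and cpd/WT replicate 2 stood above the rest of their groups. PCNA2 had 25.1, 25.1, 21.5, 30.6 and 28.3 CPM in WT/cpd roots and 22.1, 34.9, 23.2, 25.5 and 31.4 CPM in cpd/WT roots. It had 35.3, 34.2, 34.04, 27.6 and 33.5 CPM in cpd/cpd roots, against 28.8, 26.4, 27.9, 37.4 and 27.8 CPM in WT/WT roots. All cpd/cpd values but replicate 4 lay between 33.5 and 35.3 CPM, above every WT/cpd value. The ratio of PCNA1 to PCNA2 counts was 0.762 ± 0.105 in WT/cpd, 0.801 ± 0.0820 in cpd/WT, then 0.807 ± 0.0797 in cpd/cpd, against 0.791 ± 0.120 in WT/WT (SD, n = 5 each), so the group means of the ratio lay within 1 SD of each other. PCNA2 overlaps ENOC, a gene for cytosolic enolase, on the opposite strand.

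TSO2, the ribonucleotide reductase subunit, had the highest level per kilobase. TSO2 had 57.8, 40.7, 38.1, 61.8 and 54.7 CPM in WT/cpd roots and 48.6, 81.01, 46.2, 53.6 and 50.1 CPM in cpd/WT roots. It had 69.8, 63.6, 70.3, 45.4 and 60.3 CPM in cpd/cpd roots, against 54.2, 45.9, 50.6, 71.5 and 49.5 CPM in WT/WT roots. The top value was cpd/WT replicate 2, a library that for each helicase gene lay inside the range of the other libraries of all groups. Within cpd/WT it was the highest for MCM4 (29.2 CPM). TSO2 averaged 50.6 ± 10.6 CPM in WT/cpd, 55.9 ± 14.3 CPM in cpd/WT, then 61.9 ± 10.1 CPM in cpd/cpd, against 54.3 ± 10.03 CPM in WT/WT. RNR2A, the other small-subunit gene listed, averaged 15.7 ± 1.83 CPM in WT/cpd, 15.7 ± 0.936 CPM in cpd/WT, then 16.05 ± 0.843 CPM in cpd/cpd, against 17.2 ± 1.48 CPM in WT/WT. The ratio of TSO2 to RNR2A counts averaged 3.88 ± 0.724 in cpd/cpd and 3.17 ± 0.613 in WT/WT, and each group's range overlapped the others.

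The root genotype under a WT shoot was tested by WT/cpd against WT/WT. All 10 estimates were negative, from -0.27 (PCNA1) to -0.07 (MCM4) on the log2 scale with a median of -0.13, and none passed edgeR's quasi-likelihood test with Benjamini-Hochberg adjustment over all genes tested. By that test 9.45% of all genes were called, and among the members 0 had an unadjusted p under 0.05, against 24% of all genes. DESeq2 also called 0, as did limma voom with sample weights, which called 10.9% of all genes. The smallest adjusted p was 0.33, for MCM6, with 14.7 ± 2.21 CPM in WT/cpd and 17.02 ± 2.92 CPM in WT/WT. The 95% confidence intervals of the 10 folds together spanned 0.626 to 1.29. The negative sign of 7 of the 10 turned positive without the 4 least typical libraries, where the estimates lay between -0.07 and 0.24.

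The root genotype under a cpd shoot was tested by cpd/cpd against cpd/WT. All 10 estimates were positive, from 0.04 (CDC6) to 0.28 (PCNA1), with a median of 0.19 where the median of all genes was 0.02. None was called by edgeR, which called 1.86% of all genes, and 1 (PCNA2) had an unadjusted p under 0.05, against 19.8% of all genes. DESeq2 called 0 and limma voom with sample weights called 6 higher (MCM2, MCM3, MCM5, PCNA1, PCNA2 and TSO2), against 15.6% of all genes called higher. PCNA2 averaged 32.9 ± 3.07 CPM in cpd/cpd and 27.4 ± 5.55 CPM in cpd/WT, a log2 fold change of 0.27 (95% confidence interval 0.00 to 0.53, adjusted p = 0.25, edgeR). The intervals of the 10 folds spanned 0.751 to 1.61.

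The shoot genotype on a WT root was tested by cpd/WT against WT/WT. Estimates lay on both sides of 0, with 3 positive (CDC6, MCM3 and TSO2) and 7 negative, from -0.16 (MCM7) to 0.12 (CDC6). None was called by edgeR, which called 9.11% of all genes, and 0 had an unadjusted p under 0.05, against 25.6% of all genes. DESeq2 called 0, as did limma voom with sample weights, which called 18.4% of all genes. MCM7 averaged 30.4 ± 1.94 CPM in cpd/WT, then 33.9 ± 6.96 CPM in WT/WT, with an adjusted p of 0.45 in edgeR, the smallest of the 10. The intervals of the folds spanned 0.695 to 1.49.

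The shoot genotype on a cpd root, cpd/cpd against WT/cpd, gave the highest estimates of the pairwise comparisons. All 10 were positive, from 0.16 (MCM4) to 0.43 (PCNA1), with a median of 0.28 where the median of all genes was 0.02. None was called by edgeR, which called 4.66% of all genes, and 4 (MCM3, MCM6, PCNA1 and PCNA2) had an unadjusted p under 0.05, against 20.9% of all genes. DESeq2 called 0, and limma voom with sample weights called 8 higher (all but MCM4 and CDC6), against 11.7% of all genes called higher. PCNA2 averaged 32.9 ± 3.07 CPM in cpd/cpd and 26.1 ± 3.46 CPM in WT/cpd, a log2 fold change of 0.33 (95% confidence interval 0.07 to 0.60, adjusted p = 0.14, edgeR). PCNA1 averaged 26.7 ± 4.51 CPM in cpd/cpd and 19.9 ± 3.70 CPM in WT/cpd, with a log2 fold change of 0.43 (interval 0.02 to 0.84). The lower bounds of the folds reached 0.866 and the upper bounds 1.78.

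Whole cpd/cpd grafts were compared with whole WT/WT grafts. All 10 estimates were positive, from 0.01 (MCM7) to 0.29 (MCM3), and none was called by edgeR, which called 6.36% of all genes. At an unadjusted p under 0.05 there were 0 members, against 21.7% of all genes, DESeq2 called 0 and limma voom with sample weights called 7 higher (all but MCM4, MCM7 and CDC6), against 17.2% of all genes called higher. MCM3 averaged 28.6 ± 5.61 CPM in cpd/cpd and 23.5 ± 6.11 CPM in WT/WT, a log2 fold change of 0.29 (95% confidence interval -0.04 to 0.62, adjusted p = 0.31, edgeR).

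Averaged over both shoots, the root genotype (cpd roots against WT roots) gave estimates from -0.03 (CDC6) to 0.08 (MCM3), and edgeR called none of the members and 4.52% of all genes. Averaged over both roots, the shoot genotype (cpd shoots against WT shoots) gave 0.01 (MCM7) to 0.20 (MCM3), and edgeR called none of the members and 5.8% of all genes. In both averages 0 members had an unadjusted p under 0.05, against 18.3% of all genes for the root and 21.5% for the shoot, and DESeq2 called 0. Limma voom with sample weights called 0 for the root, with 13% of all genes, and 1 (MCM3) higher for the shoot, with 9.49% of all genes higher.

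The interaction is the root contrast under a cpd shoot minus the root contrast under a WT shoot. Its 10 estimates were positive, from 0.13 (CDC6) to 0.55 (PCNA1), with a median of 0.33 where the median of all genes was 0.03. None was called by edgeR, which called 7.73% of all genes, and 2 (MCM6 and PCNA2) had an unadjusted p under 0.05, against 23.8% of all genes. DESeq2 called 0, and limma voom with sample weights called 3 higher (MCM2, PCNA1 and PCNA2), against 10.1% of all genes called higher. PCNA2 had the smallest adjusted p (0.13, edgeR, log2 interaction 0.45, 95% confidence interval 0.07 to 0.82). Leaving out cpd/WT replicate 2 alone brought PCNA2 to 0.55 with an adjusted p of 0.042. All comparisons share groups with others, so their signs do not repeat each other independently.

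Without the least typical library of each group, 4 libraries a group were left and members were called in several comparisons, all of them higher. For cpd/cpd against cpd/WT, 5 of 10 were called higher (MCM2, MCM5, PCNA1, PCNA2 and TSO2), against 11% of all genes called higher. For cpd/cpd against WT/cpd, 4 were called higher (MCM3, MCM6, PCNA1 and PCNA2), against 6% of all genes. For cpd/cpd against WT/WT, 7 were called higher (all but MCM4, MCM7 and CDC6), against 13.7% of all genes. The 0 called for WT/cpd against WT/WT and for cpd/WT against WT/WT did not change, with 17.1% and 11.9% of all genes called. The root average gained 4 (MCM2, MCM5, PCNA1 and TSO2; 11.9% of all genes higher), the shoot average 1 (MCM3; 5.2%) and the interaction 2 (PCNA1 and PCNA2; 6.44%).

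PCNA1, the clamp gene with the highest estimate in that fit for cpd/cpd against cpd/WT, averaged 28.5 ± 2.54 CPM in cpd/cpd and 19.5 ± 1.99 CPM in cpd/WT over the 4 libraries left in each group (SD), with a log2 fold change of 0.54 ± 0.11 (SE, adjusted p = 0.0065, edgeR), against 0.28 with all libraries. MCM3 averaged 30.7 ± 3.54 CPM in cpd/cpd and 21.1 ± 3.62 CPM in WT/WT, with a log2 fold change of 0.54 ± 0.13 (adjusted p = 0.0079, edgeR), against 0.29 with all libraries. The estimate of every other member for cpd/cpd against WT/WT was also higher in that fit, and of the libraries left out, cpd/cpd replicate 4 was low and WT/WT replicate 4 high for these genes. The 4 libraries were chosen by their correlation over all genes, but most were also extreme for the members. In the members' scaled average described below, WT/WT replicate 4 (1.94 SD) and cpd/WT replicate 2 (0.69) were the highest of their groups. The lowest of cpd/cpd was replicate 4 (-0.79), and WT/cpd replicate 2 (-1.29) was above only replicate 3 (-1.39). For cpd/cpd against WT/WT, genes called rose from 1326 to 4959 over all genes. The fit reuses the same libraries after pools mostly extreme for the members were left out, so its p-values are not an independent test. Leaving out any 1 library alone gave 0 calls among the members in 7 of the 8 comparisons and 0 or 1 in the interaction.

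**Figure D3:**
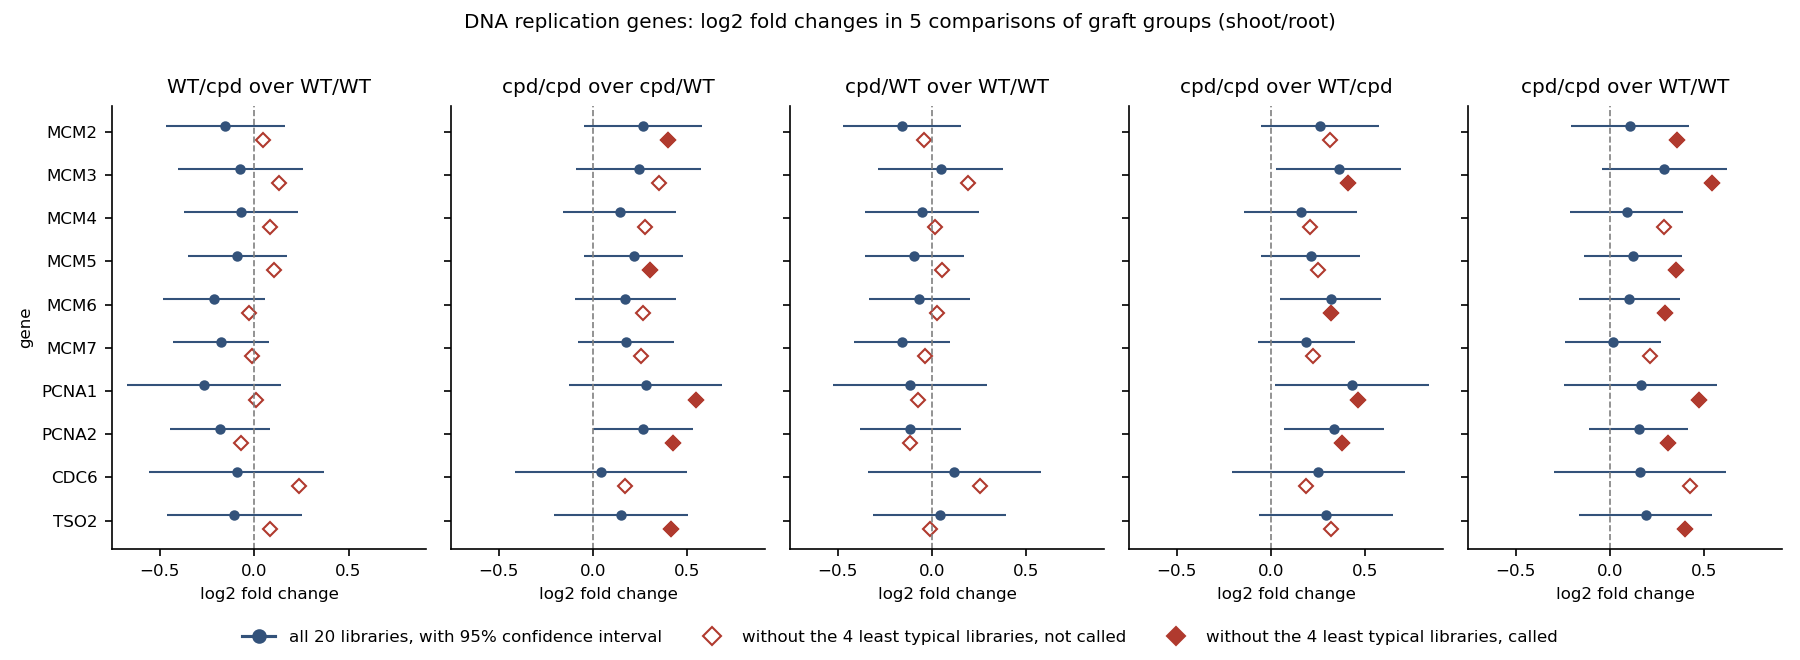
Log2 fold change of each gene (rows) in 5 comparisons (panels, first-named group over second). Circles are estimates from all 20 libraries with 95% confidence intervals and diamonds those without the 4 least typical libraries, filled where called at an adjusted p under 0.05; with all libraries 0 are called, and without the 4 libraries 5, 4 and 7 are called in the panels of cpd/cpd over cpd/WT, WT/cpd and WT/WT.

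The 10 genes went up and down together from pool to pool. After group means were taken out, Pearson's r over the 20 libraries was 0.593 to 0.936 for the 45 pairs of members, with a median of 0.826. Pairs of helicase genes had a median of 0.876, pairs with CDC6 had the lowest median, 0.732, and PCNA1 with PCNA2 had 0.874. All pairs share the libraries and their scaling, so these values describe this set of pools. Because of this, 10 estimates with 1 sign in a comparison are not 10 separate observations.

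Each gene's log2 CPM was scaled to mean 0 and SD 1 over the 20 libraries, and the 10 were averaged. The average was highest in WT/WT replicate 4 (1.94 SD), followed by cpd/cpd replicates 1 (1.33) and 3 (1.28). It was lowest in WT/cpd replicates 3 (-1.39) and 2 (-1.29) and in WT/WT replicate 2 (-1.12), so WT/WT held both a top and a bottom pool. In cpd/cpd, 4 of 5 libraries were above 0.5 SD and replicate 4 was at -0.79. The WT/WT pools alone covered most of the range of all 20 libraries.

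**Figure D4:**
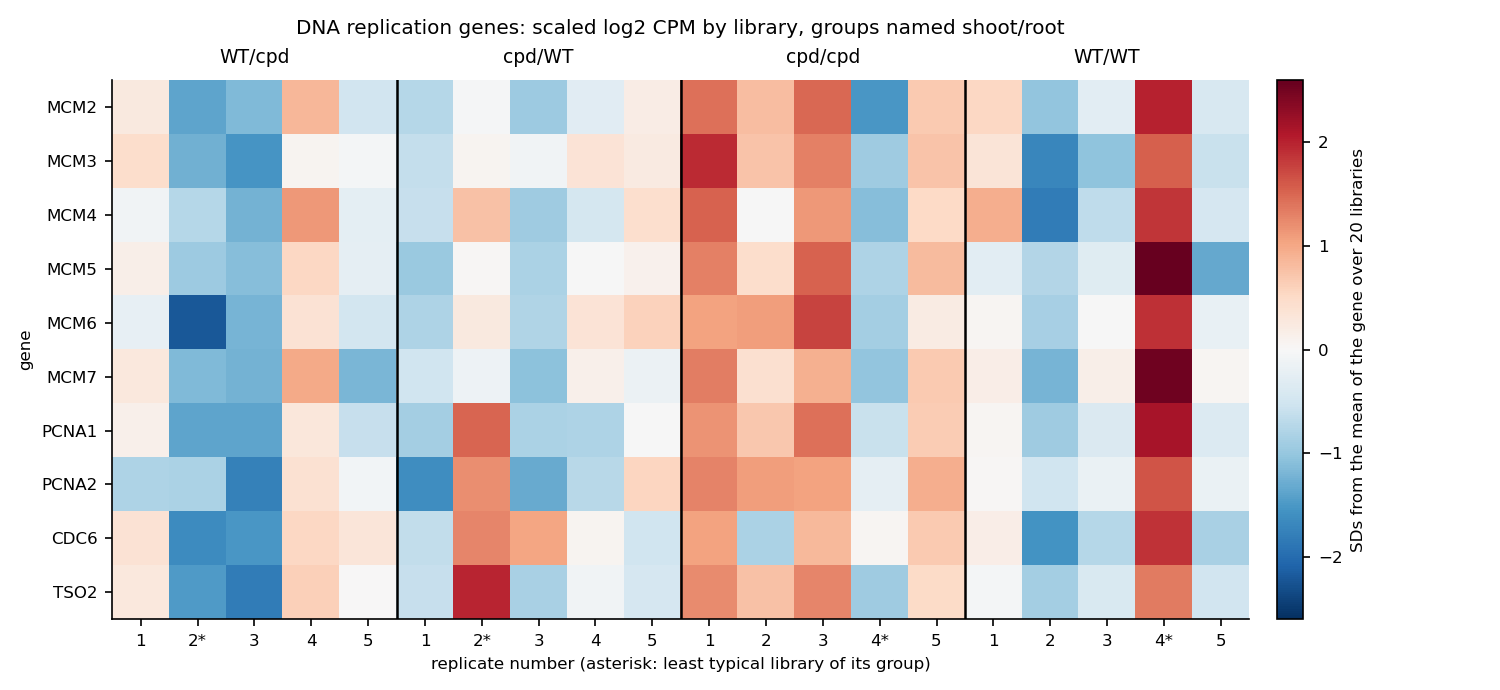
Log2 CPM of the 10 genes (rows) in the 20 libraries (columns, by group and replicate), as SDs from each gene's mean over all libraries, red above and blue below it. WT/WT replicate 4 is high for all 10 genes, WT/cpd replicate 3 is low for all 10, and asterisks mark the least typical library of each group.

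Some marker lists of other tissues lay at their extremes in WT/WT replicate 4 and cpd/cpd replicate 4, each the least typical library of its group. The other marker lists are not given by pool here. In WT/WT replicate 4, the pool with the highest members, the 10 shoot photosynthesis genes summed to 572 CPM, the lowest of all libraries, and the 5 CASP genes of the endodermis to 218 CPM, the highest. In cpd/cpd replicate 4, the cpd/cpd pool with the lowest members, the photosynthesis genes summed to 2254 CPM, the highest of all libraries, and the CASP genes to 57.99 CPM, the lowest. The 18 listed genes of mitosis, which mark dividing cells, summed to 597 CPM in WT/WT replicate 4 and to 343 CPM in cpd/cpd replicate 4. Over the groups, the CASP genes summed to 69.02 to 106 CPM in WT/cpd, 113 to 153 CPM in cpd/WT, then 57.99 to 123 CPM in cpd/cpd, against 134 to 218 CPM in WT/WT. Their mean sum was highest in WT/WT (173 CPM, against 105 CPM in cpd/cpd), whereas the members' means were highest in cpd/cpd. The 5 xylem genes summed to 254 to 287 CPM in WT/cpd, 244 to 348 CPM in cpd/WT, then 290.4 to 391 CPM in cpd/cpd, against 148 to 312 CPM in WT/WT. The part of these tissues in the members' levels was not tested.

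Among 14495 other genes (mean log2 CPM at least 3), the 10 whose log2 CPM was most like the members' average had r of 0.945 to 0.956 over the 20 libraries. They were MOD1, an enoyl-ACP reductase of fatty acid synthesis, the alpha-tubulin genes TUA4 and TUA6, 3xHMG-box2, a chromatin protein with HMG boxes, and AT3G03060, AT4G15830, AT4G24830, AT5G02870, AT5G27330 and AT5G60390. None of these 10 is on the lists used here, which do not hold every gene of replication or the cell cycle. Of their 10 promoter windows 0 held the 7-letter match, against 3.63% of all protein-coding genes. Of the 39 listed genes of replication and nucleotide supply that were ranked, 3 were among the nearest 100 of all 14495 (RPA1B, RPA2B and RNR1). So were 2 of the mitosis list and 0 of the histone list, whose ranked numbers are not given here. Of the 124 ranked genes on any list, 5 were among the nearest 100. These counts cover listed genes only, and the cyclin gene CYCA1;1, for example, was among the nearest 100 but on no list.

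The rest of the replication machinery was followed through 5 lists, of origin recognition, helicase loading and activation, polymerases, the clamp loader with lagging-strand and single-strand binding proteins, and nucleotide supply. They held 52 genes outside the members, and 51 were tested. In WT/cpd against WT/WT, 3 (5.88%) were called lower and 0 higher, against 3.26% of all genes called lower and 9.45% called in either direction. Of the 51 estimates, 8 were positive, against 47.7% of all genes. The list genes were measured in the same pools as each other, so signs shared by many of them are not separate observations. FEN1, the nuclease that trims flaps on the lagging strand, averaged 24.8 ± 2.25 CPM in WT/cpd and 32.3 ± 1.79 CPM in WT/WT (log2 fold change -0.38, edgeR adjusted p = 0.0067). RFC5, a subunit of the clamp loader, fell to 18.5 ± 1.39 CPM in WT/cpd, against 23.3 ± 1.45 CPM in WT/WT (edgeR adjusted p = 0.014), and without WT/cpd replicate 1 its adjusted p was 0.053. RPA2A, of the single-strand binding complex, fell to 15.03 ± 2.27 CPM in WT/cpd, against 20.6 ± 1.97 CPM in WT/WT (edgeR adjusted p = 0.044), a call lost without any 1 of 13 libraries (adjusted p up to 0.12).

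In cpd/cpd against cpd/WT, 48 of 51 estimates were positive, against 53.7% of all genes. In that comparison 1 of the 51 was called higher and 0 lower, against 0.82% of all genes called higher and 1.86% called either way. It was RFC3, another clamp loader subunit, with 39.2 ± 1.21 CPM in cpd/cpd and 33.3 ± 2.30 CPM in cpd/WT (log2 fold change 0.23, edgeR adjusted p = 0.04), and the call was lost without any 1 of 11 libraries. In cpd/WT against WT/WT, FEN1 and RFC3 (3.92% of the 51) were called lower and 0 genes higher. Over all genes 2.9% were called lower and 9.11% in either direction. Of the 51 estimates, 8 were positive, against 47.3% of all genes. FEN1 averaged 26.6 ± 2.30 CPM in cpd/WT, then 32.3 ± 1.79 CPM in WT/WT (edgeR adjusted p = 0.032). Both calls were lost without some single libraries, 6 for FEN1 and 8 for RFC3.

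In cpd/cpd against WT/cpd, 50 of 51 estimates were positive, against 54.4% of all genes, with a median of 0.22. Of the 51, edgeR called 0 and DESeq2 2, and 19 had an unadjusted p under 0.05 in edgeR. Over all 20862 genes edgeR called 4.66%, DESeq2 called 1666 genes, and 20.9% had an unadjusted p under 0.05. In cpd/cpd against WT/WT, SLD5, a subunit of the GINS complex of the active helicase, was the 1 of 51 called, and it was called higher. Over all genes 3.72% were called higher and 6.36% either way. SLD5 had 7.04 ± 0.884 CPM in cpd/cpd and 5.09 ± 0.652 CPM in WT/WT (edgeR adjusted p = 0.046, lost without any 1 of 12 libraries). In the interaction, FEN1 (0.52), RFC5 (0.47) and RFC3 (0.33 on the log2 scale) were called higher, 5.88% of the 51. Over all genes 2.3% were called in that direction and 7.73% in either direction. Of the 51 estimates, 50 were positive, against 53.8% of all genes. The 3 interaction calls held in all 28 alternatives tried. FEN1, RFC5 and RFC3 act with PCNA, which the clamp loader places on DNA and which binds the flap nuclease. For the members the interaction ran from 0.13 (CDC6) to 0.55 (PCNA1), and none was called by edgeR. It was 0.45 for PCNA2, and the helicase genes MCM2 (0.42) and MCM6 (0.38) lay near that value. Whether PCNA1 and PCNA2 share a response with FEN1, RFC5 and RFC3 was not tested.

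**Figure D5:**
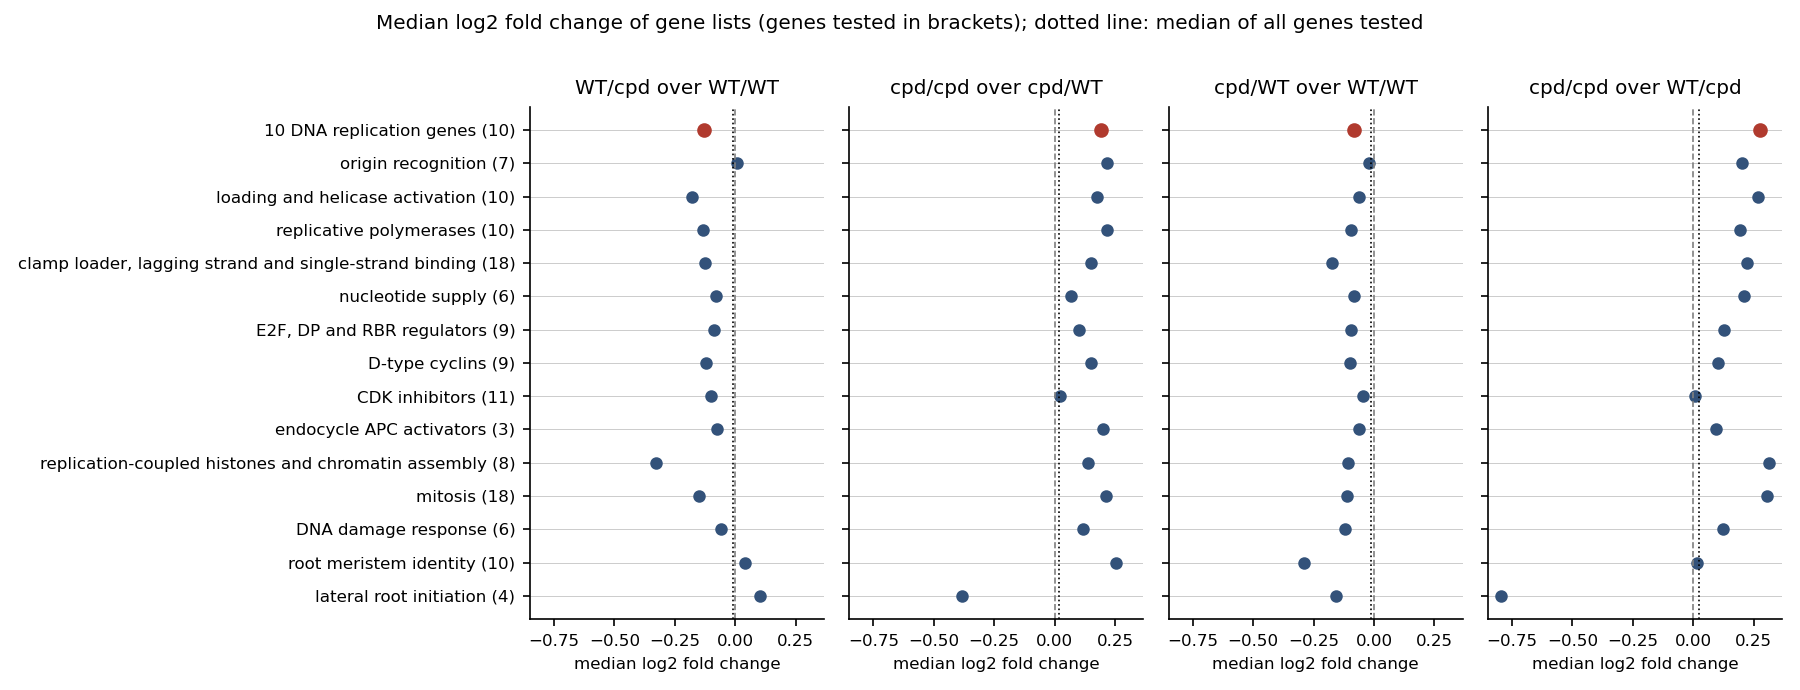
Median log2 fold change of the 10 DNA replication genes (red, top) and of 14 lists of related genes (blue) in 4 comparisons (panels), with the number of genes tested in brackets. The dashed line is 0 and the dotted line the median of all genes; the 5 lists of machinery have medians between -0.18 and 0.01 in both comparisons with WT/WT and between 0.07 and 0.27 in both comparisons of cpd/cpd.

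The E2F, DP and RBR regulators, which control replication genes at the start of S phase, had 0 of 9 genes called by edgeR in each of the 8 comparisons, with at most 2 at an unadjusted p under 0.05 and at most 1 call by DESeq2 in any of them. Over all genes edgeR called 1.86% to 9.45% and DESeq2 1249 to 2751 of 20862 in these comparisons, and 18.3% to 25.6% had an unadjusted p under 0.05, so these counts were near the background. The 8 histone and chromatin assembly genes used at forks had a median log2 fold change of -0.33 in WT/cpd against WT/WT and 0.31 in cpd/cpd against WT/cpd, with 0 called by edgeR and 3 of 8 at an unadjusted p under 0.05 in each, against 24% of all genes in WT/cpd against WT/WT and 20.9% in cpd/cpd against WT/cpd. DESeq2 called 1 of the 8 in WT/cpd against WT/WT and 0 in cpd/cpd against WT/cpd, where it called 2674 and 1666 of all 20862 genes. Of the 18 mitosis genes, all were positive in cpd/cpd against cpd/WT, where 53.7% of all genes were positive. Among the 18, 1 was called higher, against 0.82% of all genes called higher and 1.86% called either way. CYCB2;1, a mitotic cyclin, rose to 6.54 ± 1.04 CPM in cpd/cpd, against 3.85 ± 0.408 CPM in cpd/WT (log2 fold change 0.76, edgeR adjusted p = 0.0042). In cpd/WT against WT/WT 1 of the 18 was called lower, against 2.9% of all genes called lower and 9.11% called either way. It was again CYCB2;1, which fell to 3.85 ± 0.408 CPM in cpd/WT, against 5.62 ± 0.658 CPM in WT/WT (edgeR adjusted p = 0.014). The interaction of CYCB2;1 was 0.89 (edgeR adjusted p = 0.007). Of 11 inhibitors of cyclin-dependent kinases, 1 was called lower in WT/cpd against WT/WT, against 3.26% of all genes called lower and 9.45% called either way. SIM, which promotes rounds of replication without division, fell to 41.6 ± 6.93 CPM in WT/cpd, against 55.9 ± 4.42 CPM in WT/WT (log2 fold change -0.43, edgeR adjusted p = 0.012). The E2F-type match was in 22 of 52 promoter windows of the machinery lists and in 0 of 18 of the mitosis list.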

How the data were processed

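RNA of each pool was extracted with RNeasy columns and made into libraries with a directional NEBNext Ultra II kit, per the labels' protocols. The authors deposited raw counts per gene code for 20 libraries, and the submitters' processing notes name STAR and TAIR10. The counting tool, annotation and strand setting are each not given in the sources used here. Columns were matched to libraries through the descriptions and titles. Counts were scaled by TMM and filtered with filterByExpr (minimum count 10), and 8 contrasts were tested in one fit of 4 group means with edgeR 4.0.16 (glmQLFit, robust, glmQLFTest, R 4.3.3), adjusted by Benjamini-Hochberg over 20862 genes and called at an adjusted p under 0.05. DESeq2 1.42.0, limma 3.58.1 (voom with sample weights), other filters, a replicate block and the removal of libraries were alternatives; applying them to the pathway genes was added after the data were seen. The scripts were tested on simulated data. The 10 members and all lists were chosen with earlier results of these data known. Named beside the members were CPD, up to 3 called genes of each list in a comparison with the smallest adjusted p, the 10 genes nearest in pattern, and RNR2A and CDC6B as paralogs. RPA1B, RPA2B and RNR1 were named after their values were seen. Promoter sequence is from RefSeq's TAIR10.1 assembly (Biopython 1.88), where 32548 of the 32833 codes matched. Totals were 13417029 to 32337043 counts, and replicates of a group differed by 6.16 to 53.8 times counting noise (chi-square per degree of freedom, 40 pairs).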

Additional observations from a re-analysis of the deposited data

Results flagged for a closer look

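In 6 of 40 gene and group combinations, 1 library lay apart from the other 4 by more than 0.71 of the group's range (Dixon's 95% limit), which chance gives in about 1 of 20. In WT/WT, replicate 4 was high for MCM5 (43.5 CPM), MCM6 (21.99 CPM), PCNA1 (37.2 CPM) and PCNA2 (37.4 CPM), and the 4 values come from 1 pool in which the members moved together. In cpd/cpd, replicate 4 was low for PCNA2 (27.6 CPM). In cpd/WT, replicate 2 was high for TSO2 (81.0 CPM).

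By the interaction term (edgeR, adjusted p under 0.05), the effect of the root genotype differed between cpd shoots and WT shoots for 10 of the 164 list genes tested, against 7.73% of all genes, so the lists were not called more often than other genes. Replication genes FEN1 (0.52), RFC5 (0.47) and RFC3 (0.33), the kinase inhibitor SIM (0.60) and the mitotic cyclin CYCB2;1 (0.89) had positive log2 interactions. The photosynthesis genes LHCB1.1 (-2.77), LHCB2.1 (-1.76) and RCA (-1.39) and the root cap factor BRN1 (-0.96) had negative ones, and CASP4 of the endodermis a positive one (1.205).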

How the results depend on the processing

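The 0 calls among the 10 genes were the same under DESeq2's size factors, the DESeq2 test, both other filters on low counts, fits without robust estimation and fits on only the groups compared. Limma voom with sample weights gave 6 for cpd/cpd against cpd/WT, 8 against WT/cpd, 7 against WT/WT, 1 for the shoot average and 3 for the interaction, and leaving out the 4 least typical libraries gave 5, 4, 7, 1 and 2, with 4 for the root average. Leaving out 1 library gave 0 to 1 for the interaction and 0 elsewhere. Counts over all genes ranged over 991 to 3575 for WT/cpd against WT/WT (1972 reported), 86 to 5670 for cpd/cpd against cpd/WT (389 reported), 893 to 3830 for cpd/WT against WT/WT (1900 reported), 449 to 4334 for cpd/cpd against WT/cpd (973 reported), 647 to 6422 for cpd/cpd against WT/WT (1326 reported), 691 to 4202 for the root average (944 reported), 808 to 3669 for the shoot average (1210 reported) and 1050 to 4179 for the interaction (1613 reported). Signs changed as follows, on the log2 scale, and none of these values was called; the cause was not tested. Voom weights gave MCM3 0.0016 and CDC6 0.021 in WT/cpd against WT/WT, MCM4 0.0018, MCM5 0.018 and MCM6 0.015 in cpd/WT against WT/WT and MCM6 0.040, MCM7 0.044 and CDC6 0.12 in the root average. Without the 4 libraries the values were MCM2 0.045, MCM3 0.13, MCM4 0.082, MCM5 0.10, PCNA1 0.012, CDC6 0.24 and TSO2 0.082 in WT/cpd against WT/WT, MCM4 0.013, MCM5 0.050, MCM6 0.025 and TSO2 -0.013 in cpd/WT against WT/WT, MCM6 0.12, MCM7 0.12 and CDC6 0.20 in the root average and CDC6 -0.071 in the interaction. Without a filter MCM7 -0.0023 in cpd/cpd against WT/WT and PCNA1 -0.0034 in the root average changed sign. Where leaving out 1 library turned a sign, most often WT/WT replicate 4 or 2, the values had these ranges. In WT/cpd against WT/WT they were MCM3 -0.16 to 0.079, MCM4 -0.15 to 0.052, MCM5 -0.15 to 0.073, CDC6 -0.19 to 0.14, TSO2 -0.18 to 0.014. In cpd/cpd against cpd/WT they were CDC6 -0.044 to 0.14. In cpd/WT against WT/WT they were MCM3 -0.039 to 0.20, MCM4 -0.14 to 0.068, MCM5 -0.15 to 0.068, MCM6 -0.12 to 0.042, PCNA1 -0.29 to 0.099, TSO2 -0.13 to 0.16. In cpd/cpd against WT/WT they were MCM4 -0.0083 to 0.21, MCM7 -0.063 to 0.14. In the root average they were MCM4 -0.012 to 0.096, MCM6 -0.057 to 0.034, MCM7 -0.044 to 0.064, PCNA1 -0.037 to 0.11, CDC6 -0.082 to 0.092, TSO2 -0.021 to 0.11. In the shoot average they were MCM7 -0.024 to 0.079. In the interaction they were CDC6 -0.10 to 0.23. The replicate numbers did not pair the libraries: over 30 pairs of same-numbered libraries, r of their deviations ran from -0.514 to 0.433 and 5 were over 0.1. With the number as a replicate block, the members' calls stayed at 0 and only MCM7 0.0048 in the root average changed sign. With 5 pools a group, the 95% interval of the interaction fold was 0.981 to 2.18 for PCNA1. It was 0.700 to 1.72 for CDC6, the member with the widest interval on the log scale. Folds within such bounds are not excluded by these data, and the smallest detectable fold was not worked out.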

Other observations

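Of 10 listed genes of root meristem identity, edgeR called 3 in the root average (4.52% of all genes), 2 in cpd/cpd against cpd/WT (1.86%) and 2 in cpd/WT against WT/WT (9.11%). It called 1 each in WT/cpd against WT/WT (9.45%), cpd/cpd against WT/WT (6.36%) and the shoot average (5.8%). It called 0 in cpd/cpd against WT/cpd (4.66%) and in the interaction (7.73%). BRAVO, a repressor of division in the quiescent centre, rose to 14.6 ± 2.001 CPM in WT/cpd, against 7.33 ± 1.40 CPM in WT/WT (log2 fold change 0.99, edgeR adjusted p = 0.00024), and to 15.6 ± 0.836 CPM in cpd/cpd, against 9.07 ± 1.34 CPM in cpd/WT (log2 fold change 0.78, edgeR adjusted p = 0.0038). PLT3, a PLETHORA factor of the meristem, rose to 52.6 ± 5.48 CPM in cpd/cpd, against 35.3 ± 5.78 CPM in cpd/WT (log2 fold change 0.58, edgeR adjusted p = 0.0041), and fell to 35.3 ± 5.78 CPM in cpd/WT, against 47.03 ± 1.62 CPM in WT/WT (log2 fold change -0.41, edgeR adjusted p = 0.014). BBM, a related factor, fell in the same comparison to 5.82 ± 0.896 CPM in cpd/WT, against 8.56 ± 1.39 CPM in WT/WT (log2 fold change -0.55, edgeR adjusted p = 0.022). The BBM call was lost without any 1 of 4 libraries (edgeR adjusted p up to 0.058). Single genes of 3 other lists are given as values. LBD16, which acts at the start of lateral roots, fell to 3.92 ± 0.721 CPM in cpd/cpd, against 6.55 ± 1.47 CPM in WT/cpd (log2 fold change -0.73, edgeR adjusted p = 0.039). That call was lost without any 1 of 7 libraries (edgeR adjusted p up to 0.11). CYCD6;1, a D-type cyclin of formative divisions, rose to 9.60 ± 1.06 CPM in cpd/cpd, against 5.14 ± 0.759 CPM in WT/cpd (log2 fold change 0.90, edgeR adjusted p = 0.017). KRP2, an inhibitor of cyclin-dependent kinases, rose to 18.1 ± 2.33 CPM in cpd/cpd, against 12.6 ± 0.980 CPM in WT/WT (log2 fold change 0.53, edgeR adjusted p = 0.012). KRP2 was also called higher in cpd/WT (17.2 ± 2.95 CPM) against WT/WT (log2 fold change 0.45, edgeR adjusted p = 0.024). The latter call was lost without any 1 of 2 libraries (edgeR adjusted p up to 0.059).

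The ratio of CDC6 to CDC6B counts, a pair that shares 73.6% of aligned coding positions, averaged 3.72 ± 1.08 in WT/cpd, 4.26 ± 2.004 in cpd/WT, then 3.47 ± 0.806 in cpd/cpd, against 3.31 ± 0.587 in WT/WT, so the groups overlapped.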
